A study of Homo sapiens with 12 samples.

Results

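The 9 genes described here encode factors of nonsense-mediated mRNA decay (NMD): UPF1, UPF2, UPF3A, UPF3B, SMG1, SMG5, SMG6, SMG8 and SMG9. They were taken by symbol from a table of raw counts with 59653 gene symbols. Each matched 1 symbol, and all 9 were among the 24671 genes kept by a filter on low counts. The libraries came from neurons derived from reprogrammed human cells (induced pluripotent stem cells); their origin is IMR-90, an established fibroblast line. A group of 6 libraries, siNC, had received a negative control siRNA, and a group of 6, siZCC, an siRNA against ZCCHC17, a zinc knuckle RNA-binding protein. The sample titles also carry the letters NPC, whose meaning they do not give. Total RNA was made into strand-marking sequencing libraries. The labels do not say how long the cells were exposed or whether the libraries of a group came from separate cultures, so p-values measure the spread between these libraries only.

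NMD is a surveillance pathway that degrades mRNAs on which a ribosome stops at a premature stop codon, and also many normal transcripts with an intron after the stop codon or an upstream open reading frame. UPF1, an RNA helicase, is recruited to the terminating ribosome and is phosphorylated by the kinase SMG1, which SMG8 and SMG9 bind and regulate, while UPF2 and UPF3A or UPF3B connect UPF1 to exon junction complexes left downstream by splicing. Phosphorylated UPF1 then recruits SMG6, an endonuclease that cuts the mRNA, and SMG5, an adaptor that helps bring in deadenylation and decapping enzymes. In neurons the pathway is known for its part in development, and UPF3B is an X-linked intellectual disability gene.

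The libraries held 90755953 to 120023356 counts in siNC and 76115083 to 105389055 in siZCC. Scaled to library size (CPM), ZCCHC17 stood at 54 to 61 in siNC and 9.37 to 10.6 CPM in siZCC, a log2 fold change of -2.51 (SE 0.0402, adjusted p = 3.52e-17, quasi-likelihood test of edgeR, adjusted by Benjamini-Hochberg over all genes tested). All fold changes below come from this test, compare siZCC with siNC and are called at an adjusted p under 0.05. Neuron markers were present, with a summed level of 3130 to 3520 CPM in siNC and 2870 to 3230 CPM in siZCC, 1 of 10 being higher and 4 lower. RBFOX3, a marker of mature neurons, was low, at 1.27 and 1.16 CPM in the respective groups. Progenitor markers summed to 5640 to 6030 CPM in siNC and 5700 to 6230 CPM in siZCC, with 3 of 7 higher and 1 lower. Markers of proliferating cells summed to 761 to 843 CPM in siNC and 610 to 710 CPM in siZCC, and 9 of 10 were lower and 0 higher. Astrocyte markers summed to 1660 to 1880 CPM in siNC and 1760 to 2080 CPM in siZCC (4 of 8 higher, 1 lower). Of the microglial markers, AIF1, CX3CR1, P2RY12, TMEM119 and C1QA each averaged under 0.1 CPM over all libraries. CSF1R stood at 1.07 and 0.999 CPM and PTPRC at 0.32 and 0.344 CPM in siNC and siZCC. The part of these shifts in the values below was not tested, and in such bulk samples fewer cells of a type and less RNA per cell cannot be told apart. The libraries also divided by IL1B, an inflammatory cytokine gene: 3 in each group stood at 5.23 to 16 CPM and the other 3 at 0.0223 to 0.1 CPM. 

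Reads from some members can also come from other genes, which bears on how firmly their counts can be read. SMG1 has truncated copies elsewhere on chromosome 16, and 14.6% of the 75-base words of its main coding transcript occurred in other transcripts of the GENCODE v29 annotation. A single coding exon shows how near these copies are. The lines give the SMG1 stretch (chr16:18882212-18882291, minus strand, GRCh38) and its counterparts in SMG1P3 (chr16:21469793-21469872, minus strand) and SMG1P7 (chr16:70243673-70243752, minus strand), 5′ to 3′, from the GENCODE v29 transcripts. Capitals in the SMG1 line mark each base at which at least 1 of the copies differs, and in the copies the bases that differ from SMG1.
SMG1: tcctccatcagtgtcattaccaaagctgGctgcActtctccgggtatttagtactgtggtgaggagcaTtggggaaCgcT
SMG1P3: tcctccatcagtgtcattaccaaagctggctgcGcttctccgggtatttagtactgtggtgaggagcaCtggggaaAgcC
SMG1P7: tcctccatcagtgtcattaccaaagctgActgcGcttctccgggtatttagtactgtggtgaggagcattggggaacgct
SMG1P3 differed from SMG1 at 4 of these 80 bases and SMG1P7 at 2. For UPF3A, 32.8% of the words were shared, with the processed copies UPF3AP2 (26.2%) and UPF3AP1 (21.2%). In SMG6 29% of the words overlapped HIC1, which lies on the opposite strand, and in SMG8 10.3% overlapped the gene AC099850.2 on the same strand. UPF1, UPF2, UPF3B, SMG5 and SMG9 shared 0 words. The rows of SMG1, UPF3A, SMG6 and SMG8 are therefore uncertain to the extent that the counting split such reads; how it treated them, and whether it used strand, is not given in the sources used here. The copies and overlapping genes listed next were much lower than the members. The 7 SMG1 copies together reached 23.4 to 27.5 CPM in siNC and 26.1 to 29.5 CPM in siZCC. A further gene, NPIPB5, shared 3.7% of the SMG1 words, and its level was not examined. The 3 UPF3A copies reached 2.15 to 3 CPM in siNC and 2.21 to 2.66 CPM in siZCC. HIC1 stood at 8.22 CPM in control libraries and 8.73 CPM after knockdown, and AC099850.2 at 0 and 0.00195 CPM.

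Promoters are shown for the 2 members that fell, UPF2 and UPF3B, and for UPF3A, the paralog of UPF3B that did not pass the test. The windows run from 250 bases before to 50 after the start, 5′ to 3′ on the gene's strand, from RefSeq (GRCh38.p14). They lie at chr10:12043121-12043420 (minus strand) for UPF2, chrX:119852914-119853213 (minus strand) for UPF3B and chr13:114281351-114281650 (plus strand) for UPF3A. Capitals mark matches to CTCGCGAG, a palindrome, and to GCGC followed after any 2 bases by GCGC, both searched on both strands after reading the windows.
UPF2: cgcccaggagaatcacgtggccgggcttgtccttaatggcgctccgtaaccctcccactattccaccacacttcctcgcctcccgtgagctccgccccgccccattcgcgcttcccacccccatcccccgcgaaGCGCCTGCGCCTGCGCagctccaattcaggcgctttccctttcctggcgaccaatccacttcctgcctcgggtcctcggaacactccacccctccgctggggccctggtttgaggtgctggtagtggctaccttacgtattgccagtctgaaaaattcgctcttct
UPF3B: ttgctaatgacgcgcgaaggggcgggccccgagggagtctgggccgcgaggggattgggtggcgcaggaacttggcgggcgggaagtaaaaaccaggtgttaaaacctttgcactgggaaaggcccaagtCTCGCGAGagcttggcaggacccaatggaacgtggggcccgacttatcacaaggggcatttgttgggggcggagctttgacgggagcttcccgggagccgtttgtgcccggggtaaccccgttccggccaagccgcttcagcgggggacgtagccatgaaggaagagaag
UPF3A: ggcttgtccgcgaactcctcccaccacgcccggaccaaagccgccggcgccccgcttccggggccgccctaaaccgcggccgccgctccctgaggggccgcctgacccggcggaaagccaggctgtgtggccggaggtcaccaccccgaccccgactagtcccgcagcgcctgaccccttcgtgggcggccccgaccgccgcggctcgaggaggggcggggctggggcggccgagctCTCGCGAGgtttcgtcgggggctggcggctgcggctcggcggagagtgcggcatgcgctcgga
CTCGCGAG had 1 match in UPF3A and 1 in UPF3B, and in 0 of the other 6 members with a window; 1.02% of all 35116 windows in the table held it. The spaced GCGC motif occurred in 4 of the 8 members, with 3 matches in UPF1 and 2 each in UPF2 (overlapping by part of their length), SMG6 and SMG9, against 8.32% of all windows. UPF2 and UPF3B, which both fell, shared neither motif. The motifs were chosen after reading these windows, and the background was not matched in GC content, so the shares cannot show an enrichment. A match is a description of the letters only. SMG8 was not matched.

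All 9 factors were well expressed in siNC, and their levels are compared here divided by the length of the main coding transcript. UPF3A was the highest, at 50.6 ± 1.29 CPM per kilobase (SD, n = 6). SMG5 (34.5 ± 1.24) and UPF1 (33.2 ± 0.67) followed, and the libraries of these 2 overlapped. SMG6 (18.3 ± 0.327) and UPF3B (17.7 ± 0.857) also overlapped. SMG9 stood at 12.4 ± 0.434, SMG1 at 11.6 ± 1.82 and UPF2 at 9.34 ± 0.306 CPM per kilobase, and SMG1 overlapped both of the others. SMG8 was the lowest, at 7.33 ± 0.338 CPM per kilobase. Dividing by the length of all exons of the gene moved SMG5 to the top (29.7 CPM per kilobase) ahead of UPF3A (20.9) and UPF1 (20.5), with SMG8 still the lowest (6.8). Of all genes kept, 4.37% had a higher CPM in siNC than UPF1, 3.98% than SMG1 and 32.9% than SMG8.

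After ZCCHC17 knockdown, 2 of the 9 factors fell, UPF2 and UPF3B, and 0 rose. That share, 22.2%, equals the share over all genes, of which 5481 of 24671 (22.2%) were called, 2818 (11.4%) higher and 2663 (10.8%) lower; among genes of at least 5 CPM, 32% were called. In 0 of the 9 were the libraries of the groups fully separated, against 9.74% of all genes (4.5% with every siZCC library below every siNC library and 5.25% with every one above). The median log2 fold change of the 9 was -0.00401 and that of all genes -0.00164. Their median absolute log2 fold change was 0.0698, beside 0.0748 for genes of at least 5 CPM. The summed level of the 9 was 908.6 to 959.6 CPM in siNC and 955 to 982.2 CPM in siZCC. The changes were thus small for the family as a whole, and the number called was that of the table at large.

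**Figure D1:**
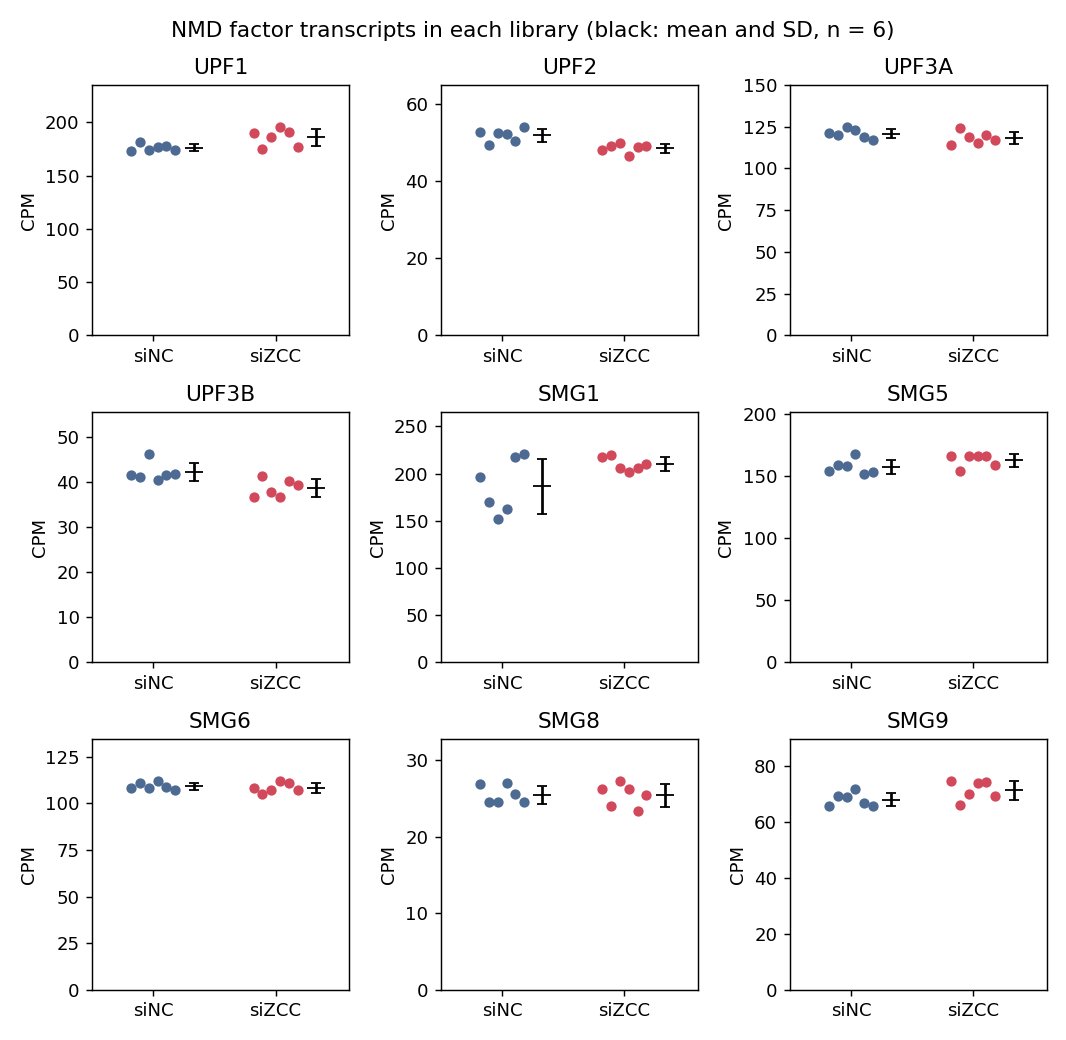
Level of each of the 9 NMD factors (CPM) in the 6 siNC and 6 siZCC libraries, 1 point per library, with the mean and SD of each group. The UPF2 points of siZCC lie between 46.6 and 49.9 CPM and those of siNC between 49.4 and 54.2 CPM; SMG1 varies from 152 to 221 CPM within siNC alone.

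UPF1, the helicase at the centre of the pathway (chromosome 19, 18831938 to 18868236, plus strand, GRCh38), had a lowest, median and highest level of 173, 176 and 182 CPM in siNC and 175, 188 and 196 CPM in siZCC. In 4 of the 6 siZCC libraries UPF1 was above every siNC library, and the other 2 lay inside the siNC range. The log2 fold change of 0.076 (SE 0.0306, 95% interval 0.011 to 0.14) did not pass (edgeR adjusted p = 0.0873). Without siZCC replicate 2, the lowest siZCC library, it was 0.0925 and passed (edgeR adjusted p = 0.03). Once the GC content of transcripts and the length of all exons of a gene were corrected for in each library, it was 0.023 (edgeR adjusted p = 0.425).

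UPF2 (chromosome 10, 11920022 to 12043170, minus strand), which links UPF1 to the UPF3 proteins, stood at 49.4, 52.5 and 54.2 CPM (lowest, median, highest) in siNC and 46.6, 49 and 49.9 CPM in siZCC. The groups touched at a single point: siZCC replicate 3 was above siNC replicate 2, and every other siZCC library was below every siNC library. UPF2 fell by 0.096 on the log2 scale (SE 0.0289, 95% interval -0.157 to -0.0352), which is 6.45% lower (edgeR adjusted p = 0.024; exact permutation p = 0.00433, two-sided). The call was lost with siNC replicate 1 or 6 or siZCC replicate 1 or 4 left out, at edgeR adjusted p values up to 0.0744 over all single omissions. It was also lost with a surrogate variable (-0.0868, edgeR adjusted p = 0.0802). This variable ran from -0.334 to 0.313 in siNC and from -0.285 to 0.583 in siZCC, and tended to be higher in siZCC. The part of the group difference that it took up was not tested. In the libraries of high IL1B the log2 fold change was -0.124 and in those of low IL1B -0.0726, neither called with 3 libraries a group.

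UPF3B (chromosome X, 119805311 to 119852998, minus strand) is the UPF3 paralog that binds the exon junction complex most strongly. It measured 40.5, 41.6 and 46.2 CPM in siNC and 36.6, 38.6 and 41.2 CPM in siZCC. Only siZCC replicate 2 entered the siNC range, and siNC replicate 3 stood well above the other siNC libraries. UPF3B fell by 0.125 on the log2 scale (SE 0.0384, 95% interval -0.206 to -0.0437), or 8.28% (edgeR adjusted p = 0.0272; exact permutation p = 0.00649, two-sided). Leaving out siNC replicate 3, or siZCC replicate 1, 3 or 4, took the adjusted p past the threshold, to at most 0.0688 by edgeR. With a surrogate variable the log2 fold change was -0.084 (edgeR adjusted p = 0.175). The log2 fold change was -0.189 in the libraries of high IL1B and -0.0637 in those of low IL1B; the difference between these was not called (edgeR adjusted p for the interaction 0.935).

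UPF3A (chromosome 13, 114281584 to 114305817, plus strand), the weaker of the paralogs in NMD assays, stood at 117, 120 and 125 CPM in siNC and 114, 118 and 124 CPM in siZCC. The ranges largely coincided, with siZCC replicates 1 and 4 below every siNC library. Its log2 fold change of -0.03 (SE 0.028, 95% interval -0.0895 to 0.0288) did not pass (edgeR adjusted p = 0.485). The ratio of UPF3A to UPF3B within a library removes any scaling between libraries. On the log2 scale this ratio was 1.52 ± 0.0567 in siNC (SD, n = 6; 1.44 to 1.6) and 1.61 ± 0.0362 in siZCC (1.57 to 1.65), a difference of 0.094 (exact permutation p = 0.00866, two-sided; 0.0173 after Benjamini-Hochberg adjustment over 2 ratios). The balance of the paralogs was thus tilted towards UPF3A in siZCC, with overlapping libraries. The ratio shares the UPF3B values that were already called, and UPF3A counts may include reads of its processed copies.

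**Figure D2:**
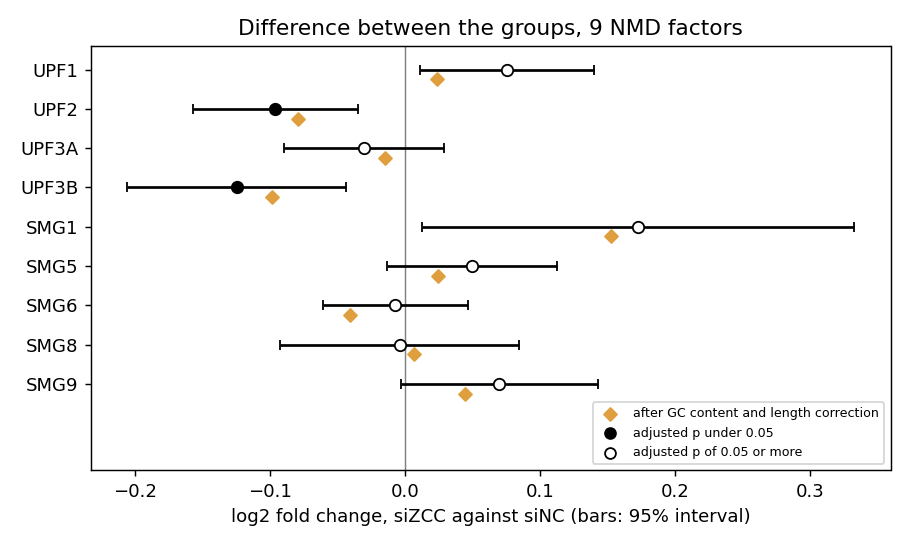
Log2 fold change of each NMD factor, siZCC against siNC, with 95% intervals from edgeR (circles, filled where the adjusted p is under 0.05). Diamonds give the log2 fold change after correction for GC content and exon length. UPF2 (-0.096) and UPF3B (-0.125) are the filled circles, and SMG1 has the widest interval, 0.0128 to 0.333.

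SMG1 (chromosome 16, 18804853 to 18926454, minus strand), the kinase that phosphorylates UPF1, had the largest log2 fold change of the 9 and the largest spread. Its lowest, median and highest levels were 152, 183 and 221 CPM in siNC and 202, 208 and 220 CPM in siZCC. In siNC, 4 of the 6 libraries lay below every siZCC library, while siNC replicates 5 (218 CPM) and 6 (221 CPM) lay at the top of the siZCC range. The log2 fold change of 0.17 (SE 0.0759, 95% interval 0.0128 to 0.333) did not pass (edgeR adjusted p = 0.116; exact permutation p = 0.0996, two-sided). Without siNC replicate 5 it was 0.222 (edgeR adjusted p = 0.0347) and without siNC replicate 6 it was 0.228 (edgeR adjusted p = 0.0333). With GC content and length corrected for, it was 0.153 (SE 0.0543) and was called (edgeR adjusted p = 0.0462). The call for SMG1 therefore depended on 2 control libraries and on the correction, and its direction did not.

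In siNC, SMG1 varied from library to library together with other long transcripts. Its main coding transcript has 16115 bases and 63 exons, the longest of the 9. Relative to its mean over all libraries, SMG1 deviated by -0.01, -0.21, -0.38, -0.27, 0.15 and 0.17 on the log2 scale in siNC replicates 1 to 6, and by 0.03 to 0.16 in siZCC. The median deviation of the 594 genes with transcripts of at least 10 kb was 0, -0.03, -0.14, -0.05, 0.07 and 0.06 in the same siNC libraries and 0 to 0.07 in siZCC. The same control library, replicate 3, was thus lowest on both measures, and replicates 5 and 6 were highest. In siZCC the match was looser. Replicate 2 was highest on both measures (0.16 and 0.07). Replicate 1 stood at 0.15 for SMG1 beside 0.01 for long transcripts, and replicate 6 at 0.1 beside 0. Over all 12 libraries, with group means removed, the genes of at least 5 CPM closest to SMG1 were MED13 (r = 0.99), NIN (r = 0.987) and KDM5A (r = 0.985). Their transcripts are 10.5, 10.3 and 10.8 kb long and 38.7%, 42.2% and 42.9% GC, beside 43.2% GC for SMG1. These genes were the closest of 12614 compared. The SD of SMG1 on the log2 scale was 0.23 in siNC and 0.05 in siZCC, so the r values rested mainly on siNC. The 3230 genes of at most 42% GC had median deviations of 0.03, -0.01, -0.02, -0.03, 0.04 and 0.05 in siNC replicates 1 to 6. Length and GC content were thus not separated here. After the correction the within-group SD of SMG1 went from 0.16 to 0.11 on the log2 scale, still above the 0.0685 of the median gene of at least 5 CPM before correction. That correction used the length of all exons of the gene. The parts of transcript length and GC content in the group difference beyond that corrected fit were not tested.

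**Figure D3:**
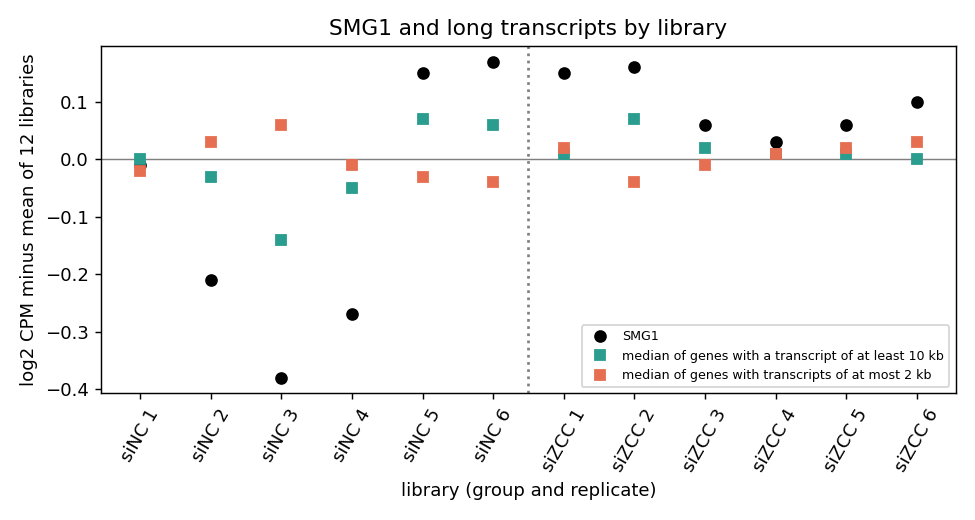
Deviation of SMG1 and of the median of 594 genes with transcripts of at least 10 kb and of genes with transcripts of at most 2 kb from their means (log2 CPM), for each of the 12 libraries. siNC replicate 3 is lowest for SMG1 and for long transcripts (-0.38 and -0.14), and the siZCC libraries stay between 0.03 and 0.16 for SMG1.

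The truncated SMG1 copies were also counted. Of the 9 near copies of SMG1 and UPF3A that passed the filter, 2 rose, or 22.2%, the same share as over all genes. SMG1P7 went from 10.2 ± 0.496 to 11.8 ± 0.536 CPM (SD, n = 6), with every siZCC library above every siNC library (log2 fold change 0.21, SE 0.0449, edgeR adjusted p = 0.00336). SMG1P6, at 0.955 ± 0.116 and 1.2 ± 0.144 CPM, rose by 0.33 (SE 0.104, edgeR adjusted p = 0.029). Log2 fold changes of 0.163 for SMG1P1, 0.152 for SMG1P5, 0.039 for SMG1P3 and -0.028 for SMG1P2 did not pass, nor did 0.0835 for UPF3AP1, -0.0551 for UPF3AP2 and 0.00525 for UPF3AP3. Because these rows can hold reads of SMG1 and the reverse, they are not independent of the SMG1 values.

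SMG8 and SMG9 form a complex with SMG1 that restrains its kinase activity. SMG8 (chromosome 17, 59209400 to 59215247, plus strand) stood at 24.5, 25.1 and 27 CPM in siNC and 23.4, 25.8 and 27.3 CPM in siZCC, from 1923 to 3074 counts a library. The groups coincided, and the log2 fold change was -0.00401 (SE 0.042, 95% interval -0.0925 to 0.0845; edgeR adjusted p = 0.961), its sign turning with single libraries. SMG9 (chromosome 19, 43727992 to 43754990, minus strand) stood at 65.8, 68 and 71.8 CPM in siNC and 66.3, 72.2 and 74.8 CPM in siZCC. In siZCC, 3 of the 6 libraries were above all of siNC and the rest inside its range. SMG9's log2 fold change of 0.07 (SE 0.0346, 95% interval -0.00325 to 0.143) did not pass (edgeR adjusted p = 0.166). It was 0.124 in the libraries of high IL1B and 0.0114 in those of low IL1B (edgeR adjusted p for the interaction 0.935). Over all 9 members the lowest adjusted p for this interaction was 0.935, and 0 genes of the table were called by it (1177 at an unadjusted p under 0.05).

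SMG5 (chromosome 1, 156249224 to 156282825, minus strand), the adaptor for deadenylation and decapping, stood at 152, 156 and 168 CPM in siNC and 154, 166 and 166 CPM in siZCC. Every siZCC library lay inside the siNC range, and the log2 fold change of 0.05 (SE 0.03, 95% interval -0.0134 to 0.113) did not pass (edgeR adjusted p = 0.258). SMG6 (chromosome 17, 2059839 to 2303771, minus strand), the endonuclease, stood at 107, 108 and 112 CPM in siNC and at 105, 108 and 112 CPM in siZCC. These ranges also coincided, with a log2 fold change of -0.0072 (SE 0.0255, 95% interval -0.061 to 0.0465; edgeR adjusted p = 0.878). With GC content and length corrected for, SMG6 was at -0.041 (edgeR adjusted p = 0.107). Every corrected siZCC value was below every siNC value, but barely. The nearest were -0.02 in siZCC replicate 4 and -0.019 in siNC replicate 6, relative to the siNC mean. The share of all genes separated after the correction was not counted. Within a library the log2 ratio of SMG6 to SMG5 was -0.53 ± 0.0338 in siNC (SD, n = 6; -0.584 to -0.489) and -0.588 ± 0.0311 in siZCC (-0.639 to -0.555). The difference of -0.057 passed (exact permutation p = 0.0173, two-sided; 0.0173 after Benjamini-Hochberg adjustment over 2 ratios), with overlapping libraries.

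Some members also varied together among libraries of the same group. This was not particular to the family: genes outside it correlated with UPF1 at up to r = 0.939, the closest of 12614 compared. How many pairs of other genes would pass was not counted. Deviations from the group means were correlated over the 12 libraries for all 36 pairs of members, with 100000 permutations within groups. The 2 farthest libraries, left out in a further r, were those farthest from the median deviation of the first-named gene of a pair. By Pearson's r 4 pairs passed, all positive and all among UPF1, SMG5, SMG6 and SMG9, whose main coding transcripts are 55.3% to 60.1% GC; the other 5 members are 40.3% to 48.4% GC. SMG5 and SMG9 had r = 0.88 (permutation p = 0.00043, adjusted 0.0155) and rho = 0.83 (permutation p = 0.00266, adjusted 0.0428), and r = 0.81 without the 2 farthest libraries. SMG6 and SMG9 had r = 0.86 (permutation p = 0.00148, adjusted 0.0266) and rho = 0.79 (permutation p = 0.00595, adjusted 0.0428), and r = 0.82 without the 2 farthest libraries. UPF1 and SMG6 had r = 0.82 (permutation p = 0.00486, adjusted 0.0437) and rho = 0.81 (permutation p = 0.00589, adjusted 0.0428), and r = 0.8 without the 2 farthest. UPF1 and SMG9 had r = 0.8 (permutation p = 0.00476, adjusted 0.0437) and rho = 0.77 (permutation p = 0.00755, adjusted 0.0453), and r = 0.66 without the 2 farthest. With GC content and length corrected for, these r values were 0.31, 0.5, -0.24 and 0.13 in the same order. All 6 pairs among these members ran from 0.64 to 0.88 before the correction and from -0.24 to 0.5 after it. Some other pairs were stronger after the correction. UPF3A with SMG1 went from r = -0.53 to -0.87, the strongest corrected value of all 36 pairs. UPF3B with SMG8 went from -0.67 to -0.77 and SMG1 with SMG6 from -0.4 to -0.67. The corrected r values were not tested.

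By Spearman's rho the same 4 pairs passed and 2 more, both negative and each joining a GC-rich member to a GC-poor one. UPF1 and UPF2 had rho = -0.78 (permutation p = 0.00371, adjusted 0.0428) and r = -0.64 (permutation p = 0.0097, adjusted 0.054), with r = -0.79 without the 2 farthest libraries and -0.42 after the correction. SMG1 and SMG5 had rho = -0.69 (permutation p = 0.00369, adjusted 0.0428) and r = -0.64 (permutation p = 0.0237, adjusted 0.0943), with r = -0.76 without the 2 farthest libraries and -0.089 after the correction.

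**Figure D4:**
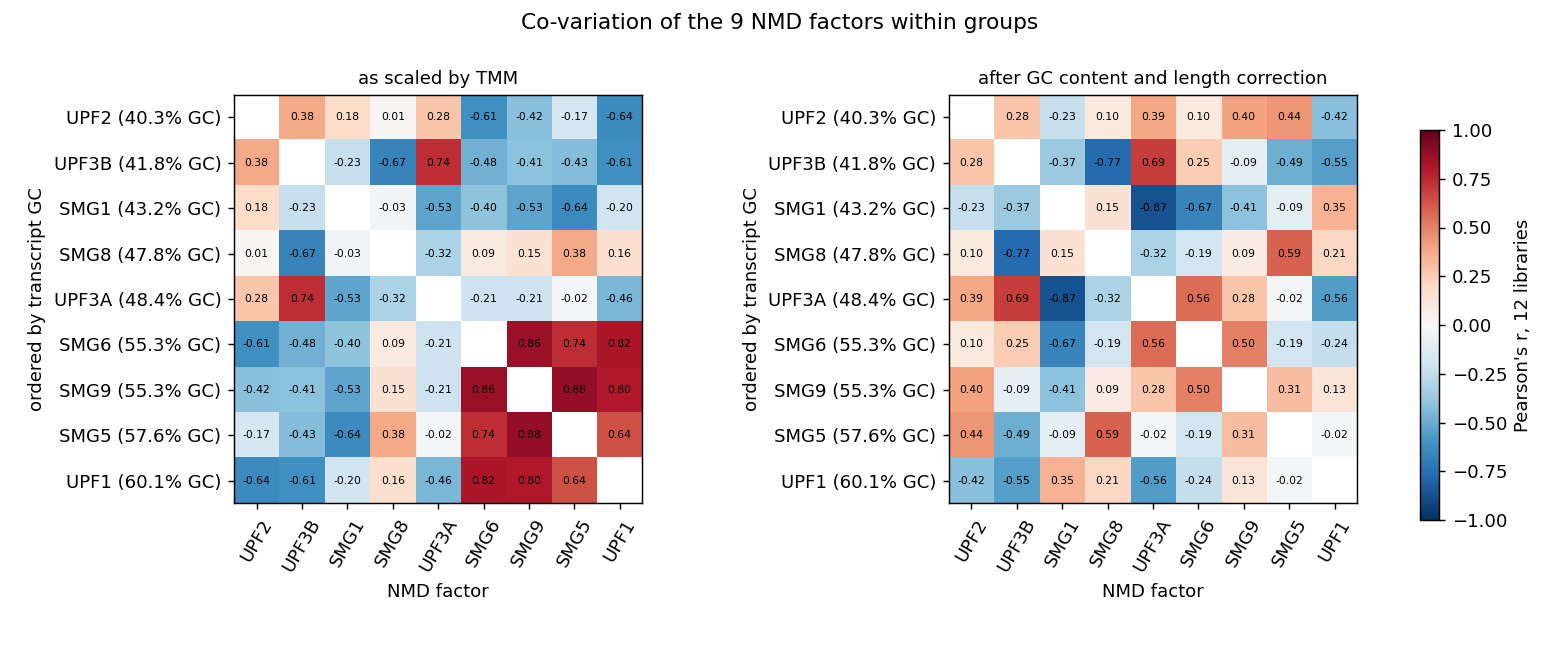
Pearson's r between the 9 NMD factors over 12 libraries after removing group means, before (left) and after (right) correction for GC content and exon length. Members are ordered by the GC content of their main coding transcript. The block of r values from 0.64 to 0.88 among SMG6, SMG9, SMG5 and UPF1 at lower right runs from -0.24 to 0.5 after correction, and UPF3A with UPF3B goes from 0.74 to 0.69.

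UPF3A and UPF3B had r = 0.74 (permutation p = 0.0105, adjusted 0.054) and rho = 0.59 (permutation p = 0.0646), which missed the threshold. Without the 2 libraries farthest for UPF3A, r was 0.44. Leaving them out also narrows the range of UPF3A, which can lower r by itself. After the correction, with all libraries kept, r was 0.69. The 3 genes closest to UPF1 by the same measure were GALNT16 (r = 0.939), CACNA1G (r = 0.934) and PCNX3 (r = 0.934), of 56.5%, 60.5% and 63.8% GC. Genes of at least 55% GC had a median deviation of -0.07 to 0.016 on the log2 scale in siNC and -0.055 to 0.063 in siZCC, with group means of -0.021 and 0.022. With the correction, the within-group SD of UPF1 went from 0.05 to 0.024, of SMG5 from 0.048 to 0.025 and of SMG6 from 0.031 to 0.015, while UPF2 stayed at 0.042. UPF2 and UPF3B remained called with it, at -0.079 (edgeR adjusted p = 0.0315) and -0.099 (edgeR adjusted p = 0.0283), but not with a surrogate variable.

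The proteins that work beside the 9 factors were counted in lists chosen from textbook knowledge. Of 12 genes of the exon junction complex and its partners, 1 rose and 2 fell (25% called, beside 22.2% of all genes and 32% of those of at least 5 CPM; median log2 fold change -0.055, beside -0.00164 for all genes). CASC3, a core subunit, rose from 176 ± 6.51 to 189 ± 3.59 CPM (SD, n = 6; log2 fold change 0.11, SE 0.0284, edgeR adjusted p = 0.0127). PNN, a splicing-linked partner, fell from 200 ± 4.16 to 182 ± 5.91 CPM (-0.13, SE 0.0274, edgeR adjusted p = 0.0027); for both genes the groups did not overlap. ACIN1, another peripheral subunit, fell from 314 ± 8.58 to 298 ± 8.07 CPM (-0.08, edgeR adjusted p = 0.0426).

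Of 10 genes of translation termination and the messenger cap, 1 rose and 2 fell (30% called, near the 32% of genes of at least 5 CPM, median -0.015). GSPT2, a paralog of the release factor eRF3, fell from 71.2 ± 1.76 to 64.8 ± 1.26 CPM with separated groups (-0.138, SE 0.0261, edgeR adjusted p = 0.00124). NCBP1, the large cap-binding subunit, fell by 0.11 (edgeR adjusted p = 0.0316), and PABPC1, the cytoplasmic poly(A)-binding protein, rose by 0.072 (edgeR adjusted p = 0.0364). Of 15 accessory factors, 1 rose and 3 fell (26.7% called, between the 22.2% of all genes and the 32% of those of at least 5 CPM, median -0.016). DHX34, a helicase that binds UPF1, rose from 39.7 ± 2.37 to 44.1 ± 1.72 CPM (0.15, SE 0.0394, edgeR adjusted p = 0.0104). PNRC2, a decapping adaptor, fell from 93.4 ± 1.44 to 85 ± 3.25 CPM (-0.135, SE 0.0285, edgeR adjusted p = 0.00277), and PPP2CA, the catalytic subunit of the phosphatase PP2A, fell by 0.1 (edgeR adjusted p = 0.0159).

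Among 26 genes of the general decay machinery, 3 rose and 7 fell (38.5% called, beside 22.2% of all genes and 32% of those of at least 5 CPM, median -0.047). XRN2, the nuclear exonuclease that degrades RNA from its 5′ end, fell from 95.8 ± 2.2 to 83.8 ± 1.15 CPM (-0.19, SE 0.0249, edgeR adjusted p = 4.8e-05). DDX6, a helicase of decapping complexes, fell from 257 ± 8.88 to 236 ± 10.5 CPM (-0.118, edgeR adjusted p = 0.0161). SKIC2, the helicase of the SKI complex, rose from 69.5 ± 2.62 to 79.5 ± 2.15 CPM (0.19, SE 0.0302, edgeR adjusted p = 0.000252), and PATL1, a decapping activator, rose by 0.148 (edgeR adjusted p = 0.00176). The count was sensitive to single libraries and covariates: it was 6 when any of siNC replicates 1 and 6 and siZCC replicates 1 and 5 was left out, 5 when siZCC replicate 3 or 4 was, and 3 with a surrogate variable.

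**Figure D5:**
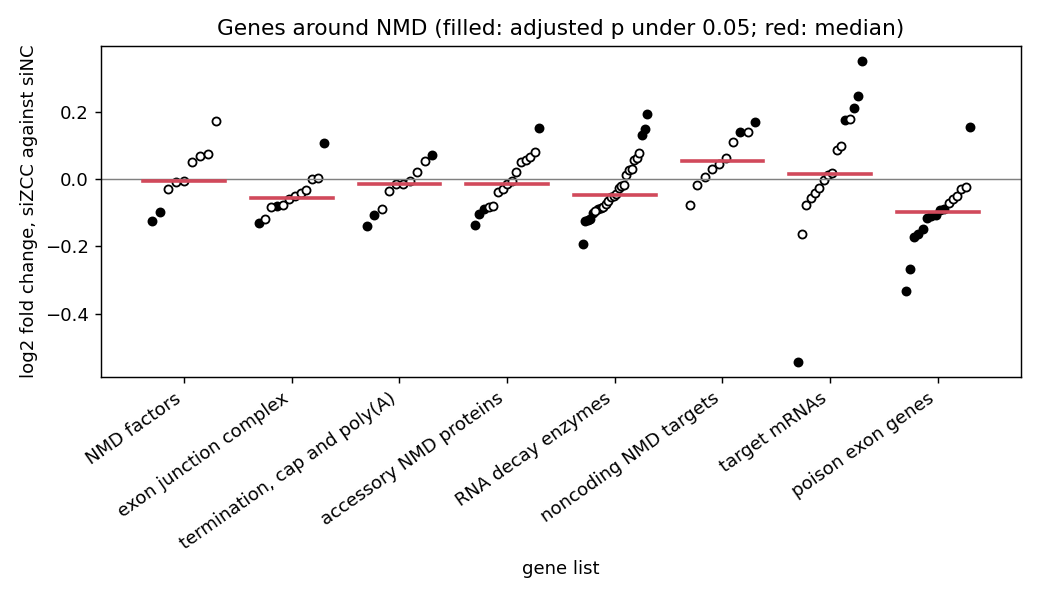
Log2 fold change of every gene kept in 7 lists around the 9 NMD factors, siZCC against siNC, with called genes (edgeR adjusted p under 0.05) filled and the list median as a red bar; the 9 NMD factors stand at the left. In the list of genes with poison exons 10 of 16 are called lower, with a median of -0.0987, while the medians of the other 6 lists lie between -0.0546 and 0.053.

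Transcripts known to be degraded by NMD were counted in the same way. Of 10 noncoding targets, 9 snoRNA host genes and the pseudogene RP9P, 2 rose and 0 fell (20% called, near the 22.2% of all genes, median 0.053). SNHG1 rose from 42.8 ± 1.73 to 47.1 ± 1.35 CPM with separated groups (0.139, SE 0.0317, edgeR adjusted p = 0.00461), and GAS5 from 80 ± 4.89 to 90.1 ± 5.47 CPM (0.17, SE 0.0444, edgeR adjusted p = 0.0107). Of 16 protein-coding targets, 4 rose and 1 fell (31.2% called, near the 32% of genes of at least 5 CPM, median 0.016). DDIT3, a transcription factor of the stress response, rose from 17.8 ± 1.31 to 22.7 ± 0.872 CPM with separated groups (0.35, SE 0.0462, edgeR adjusted p = 5.4e-05). DNAJB2, a neuronal co-chaperone, rose from 153 ± 7.11 to 173 ± 8.17 CPM (0.18, SE 0.0369, edgeR adjusted p = 0.00257). HFE, an iron-regulating protein, fell from 0.848 ± 0.115 to 0.58 ± 0.102 CPM (-0.54, SE 0.13, edgeR adjusted p = 0.00641). ATF4, which controls DDIT3 and is itself a target through its upstream reading frames, stood at 237 ± 9.58 and 237 ± 6.63 CPM (log2 fold change -0.00144, edgeR adjusted p = 0.98) and was named after its values were seen.

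Of 16 genes whose alternative exons bring a premature stop codon, 1 rose and 10 fell (68.8% called, beside 22.2% of all genes and 32% of those of at least 5 CPM, median -0.0987). Gene-level counts do not separate the productive and the NMD-degraded isoforms of these genes. SRSF3, a splicing factor that regulates its own poison exon, fell from 176 ± 7.53 to 140 ± 4.83 CPM (-0.33, SE 0.0328, edgeR adjusted p = 4e-06), and SRSF2 from 111 ± 2.95 to 99 ± 2.73 CPM (-0.17, SE 0.0276, edgeR adjusted p = 0.000346). DLG4, a postsynaptic scaffold with an exon whose skipping leads to NMD, rose from 172 ± 7.75 to 192 ± 6.08 CPM (0.16, SE 0.0327, edgeR adjusted p = 0.00264). The groups were separated for all 3 genes. The lists were chosen with results of these data known, so their counts are descriptions and not independent evidence of a direction.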

How the data were processed

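Whole-number counts per gene symbol were deposited by the authors as a single table of the 12 libraries. Per the submitters' processing notes, bcl2fastq 2.17, STAR 2.7.6a, featureCounts 2.0.1 and the build GRCh38 were used; their settings, the strand setting and the annotation are not given in the sources used here. All 12 columns matched a library's title. Positions, lengths, GC content and shared words came from GENCODE v29 (GRCh38), in which 92.1% of symbols were found, and promoters from RefSeq.

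Genes were kept by filterByExpr with default settings, scaled by TMM and tested with edgeR 4.0.16 (quasi-likelihood F test, group only, all 12 libraries), with Benjamini-Hochberg adjustment over 24671 genes; the biological coefficient of variation was 6.55%. CPM were computed on TMM-scaled library sizes, and log2 CPM with a prior count of 2. Exact permutation tests used all 924 assignments of libraries, which allow a smallest p of 0.00216. Alternatives used DESeq2 1.42.0, limma 3.58.1 and sva 3.50.0 in R 4.3.3. The GC content and length correction was a loess trend within each library, over the 94.7% of kept genes with values. It took the GC content of the longest transcript and the length of all exons of the gene. On simulated counts of 24376 genes in the siNC and siZCC design, 8.57% of the calls were false. The test recovered 100% of genes changed by 1, 88% by 0.5, 56% by 0.25 and 12% by 0.15 on the log2 scale. At each size 50 genes were changed, drawn from those of mean count at least 50, while 5481 genes were called in the data. The adjustment was thus stricter in the simulation, and these shares do not measure the sensitivity of the reported test.

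The members and the lists were chosen with earlier results of these data known. Genes named were the members, ZCCHC17, in each list the 2 of smallest p in each direction among those called, every near copy kept, and the 3 genes nearest to UPF1 and to SMG1; ATF4, IL1B, overlapping genes and single markers were named besides, outside this rule. Replicate numbers are not stated to pair the libraries and were not used as a block in the reported test. The values of a gene counted in the list of accessory factors are not reported here.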

Additional observations from a re-analysis of the deposited data

Results flagged for a closer look

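UPF3B in siNC replicate 3 stood apart from the other control libraries. Its log2 CPM was 5.529, while the nearest control library was at 5.385 and the lowest at 5.339, so that its gap to the nearest took up 0.758 of the group's range, above the 95% limit of Dixon for 6 libraries. Without that library UPF3B was no longer called. The total count of siNC replicate 4, 90755953, was low in the same sense, with a gap of 0.657 of the range. Of 28 sets of 6 values checked, 2 went past this limit, and 1.4 would by chance, which marks about 1 set in 20.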

How the results depend on the processing

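ZCCHC17 kept its direction and call in all 24 alternatives, from -2.56 to -2.46. Over the whole table, 2043 of 24925 genes tested were called with only the libraries of high IL1B and 1602 of 24824 with only those of low IL1B. With a surrogate variable 4409 of 24671 genes were called, and with a replicate block 4902 of 24671. After the GC content and length correction 6269 of 23348 were called, beside 5481 of 24671 in the main fit. With single libraries left out, 4484 to 5626 genes were called. Of the 9 factors 0 were called with a surrogate variable, 0 with the libraries of high IL1B and 0 with those of low IL1B, and 3 (UPF2, UPF3B and SMG1) after the GC content and length correction. With single libraries left out, 0 to 3 were called: 0 without siZCC replicate 1 or 4, and 1 without siNC replicate 1 or 3 or siZCC replicate 3.

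The replicate block left 1 factor called, UPF3B, with UPF2 at -0.0959 (edgeR adjusted p = 0.054). Libraries of the same number had correlations of -0.23 to 0.23 and 0 of 12 correlated best with their own number. The labels do not state a pairing, and such correlations cannot exclude one. Permuted within replicate numbers, as a replicate block, the difference in the SMG6 to SMG5 ratio of -0.0574 had an exact p of 0.0625, and the UPF3A to UPF3B difference an exact p of 0.0312. The value of 0.0312 is the smallest that permutation within replicate numbers allows here. Neither p was adjusted over the ratios, unlike in the main test.

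UPF2 also lost its call with a surrogate variable (-0.0868), and in the libraries of high (-0.124) and low (-0.0726) IL1B, and ran from -0.111 to -0.0821 with single libraries left out. In a fit with an IL1B interaction, added after seeing the data, it was -0.0723 in the low libraries. UPF3B lost its call with a surrogate variable (-0.084), in the libraries of high (-0.189) and low (-0.0637) IL1B and in the low libraries of the interaction fit (-0.0633), and ran from -0.144 to -0.0966. SMG1 was called after the GC content and length correction (0.153) and ran from 0.12 to 0.228. UPF1, not called in these, was 0.0233 after the GC content and length correction, 0.0359 with a surrogate variable, and 0.12 and 0.0268 in the libraries of high and low IL1B; it ran from 0.0628 to 0.0925 with single libraries left out. SMG6 was -0.041 after the correction and -0.0368 with a surrogate variable, turned positive in the libraries of high IL1B (0.024) and ran from -0.0142 to 0.00167. SMG8 turned positive after the GC content and length correction (0.0063) and in the libraries of high IL1B (0.0401), and ran from -0.0292 to 0.0192. The cause of these changes was not tested. Each IL1B set held fewer libraries than the main fit, and the part of this was not tested either.

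With only the libraries of high and of low IL1B, the numbers called were 1 and 0 of the exon junction complex list, 0 and 1 of termination, 2 and 0 of the accessory factors, 3 and 2 of the decay machinery, 2 and 3 of the protein-coding targets, 6 and 3 of the genes with poison exons and 0 and 0 of the near copies; 0 noncoding targets were called in the libraries of high IL1B. A surrogate variable left 3 decay genes and 7 genes with poison exons. Without a filter 1 near copy was called. With single libraries left out, termination ran from 1 to 3, decay from 5 to 11 and the near copies from 1 to 2. Each member had at least 1923 counts in every library.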
